A study of Mus musculus with 16 samples.

Results

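Noct, the gene of nocturnin, was followed together with the core genes of the circadian clock in mouse Ba/F3 cells in which a FOXO transcription factor was switched on. The members were the probes of 10 listed genes (Noct, Per1, Per2, Cry1, Cry2, Nr1d1, Nr1d2, Arntl, Clock and Dbp) in the array platform's table of probes and genes, where Noct stands under its older symbol Ccrn4l. The table named 12 probes of 9 of these genes among 31769 gene probes, and Per2 was not analysed here. Noct, Clock and Nr1d2 had 2 probes each, numbered by brightness, and each probe was read alone. The genes were chosen by the ratio of Noct to time 0 on these arrays, among the highest of all. The ratios of the 12 probes against time 0, and every value of Noct, are therefore given as descriptions with no p-value, and the number of clock probes past the fit's threshold against time 0 is counted once, with nothing read from it.

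The arrays compared cells after 2 h or 8 h of 4-hydroxytamoxifen (4-OHT) with untreated cells at 0 h of the same line. Ba/F3 is an established mouse pro-B line that needs interleukin-3, which was in the medium of every group. The FOXO3 line was a clone, grown out by limiting dilution under G418, that carried pcDNA3-HA-FOXO3(A3)-ER. The FOXO4 line was a clone made in the same way with pcDNA3-HA-FOXO4(A3)-ER. In these proteins a tagged FOXO factor is joined to an oestrogen receptor domain, and 4-OHT releases the fusion into activity. Each line had 4 arrays at each of the 2 times, 16 arrays in all. An array set 1 treated culture against the time 0 pool of its line, with Cy5 on the treated side of 2 arrays per group and Cy3 on that of the other 2. Each line was 1 clone, and its time 0 pool was 1 control sample that 8 arrays shared. Cells that lacked a fusion, or that were cultured as long in the absence of 4-OHT, were not among the arrays. Effects of the fusion, of 4-OHT itself and of time in culture cannot be told apart, and neither can the FOXO factor and the clone. In such bulk RNA, fewer cells with a transcript and less of it per cell cannot be told apart either.

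In the mammalian clock, CLOCK and BMAL1 (the product of Arntl) bind E-boxes and activate the Per and Cry genes, whose proteins return to repress them. The same pair activates Nr1d1 and Nr1d2, which encode the REV-ERB repressors of Arntl, and the output factor Dbp. Nocturnin is a rhythmically expressed relative of the CCR4 deadenylases that acts as a phosphatase of NADP(H), and its transcript is also known to respond acutely to stimuli outside the clock.

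Median spot intensities ran from 92.2 to 159 in Cy5 and from 96.6 to 158 in Cy3, and local backgrounds from 38 to 45. Of the gene probes, 30827 were bright enough to be tested, and all 12 member probes were among them. A signal is called dim here when it was at or below the control percentile, a level that 30.4% to 42.4% of gene probes exceeded. This is the level that 95% of external control spots on that array did not exceed, taken over the control types without a detectable signal. The 1 of 14 types with a detectable signal (144 spots) was left out of it. The alternative of centring on control spots used those 144 spots only. Of 11 B lineage markers, 9 were dim on every array, among them Cd79a, Vpreb1, Igll1 and Pax5, and Cd79b was above the control spots in the time 0 channel of all 16 arrays. Of these 11 and of 11 myeloid, mast cell and basophil markers, 0 were called by limma in any of 9 comparisons, and between 0 and 1 of each list passed an unadjusted p of 0.05. The log2 of the summed level of the B lineage markers was 10.3 to 10.52 in the pools and 10.21 to 10.49 in treated cells. That of the myeloid, mast cell and basophil markers was higher, at 14.18 to 15.19 in the pools and 14.13 to 15.04 in treated cells. In that list the mast cell marker Cpa3 was above the control spots in the time 0 channel of all 16 arrays, and 6 markers were dim on every array. Of 8 markers of T, NK, erythroid, stromal and epithelial cells, between 1 and 2 were called against time 0 in each group. These were Klf1, an erythroid factor (-1.03 to -0.77 on the log2 scale in the 4 groups), Cd3e, higher in FOXO3 cells at 8 h, and Krt18, lower in FOXO4 cells. The log2 of the summed level of these 8 was 11.06 to 11.65 in the pools and 10.93 to 11.4 in treated cells, with Cd3d, Nkg7 and Col1a1 dim throughout, and their part in the results below was not tested. The Foxo3 probe had a log2 level of 7.44 across the arrays of the FOXO3 line and 6.47 across those of the FOXO4 line, and the Foxo4 probe one of 6.94 and 7.27. Whether these probes read the fusion transcripts was not tested.

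The brighter probe of Noct rose steeply in both lines. On the log2 scale, with the probe's dye effect removed, its ratio to time 0 in FOXO3 cells was 1.58, 1.62, 1.14 and 1.50 on the 4 arrays at 2 h, and 3.61, 3.48, 3.65 and 3.65 at 8 h. In FOXO4 cells it was 1.29, 1.56, 1.51 and 1.36 at 2 h, and 2.85, 2.80, 3.08 and 2.75 at 8 h. The 8 h arrays lay above all 2 h arrays of their line, the 2 lines overlapped at 2 h, and at 8 h every FOXO3 array lay above every FOXO4 array. The group means were 1.46 in FOXO3 cells at 2 h, 3.60 at 8 h, 1.43 in FOXO4 cells at 2 h and 2.87 at 8 h, each with an SE of 0.07 (n = 4). These are folds of 2.76, 12.1, 2.69 and 7.31.

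**Figure D1:**
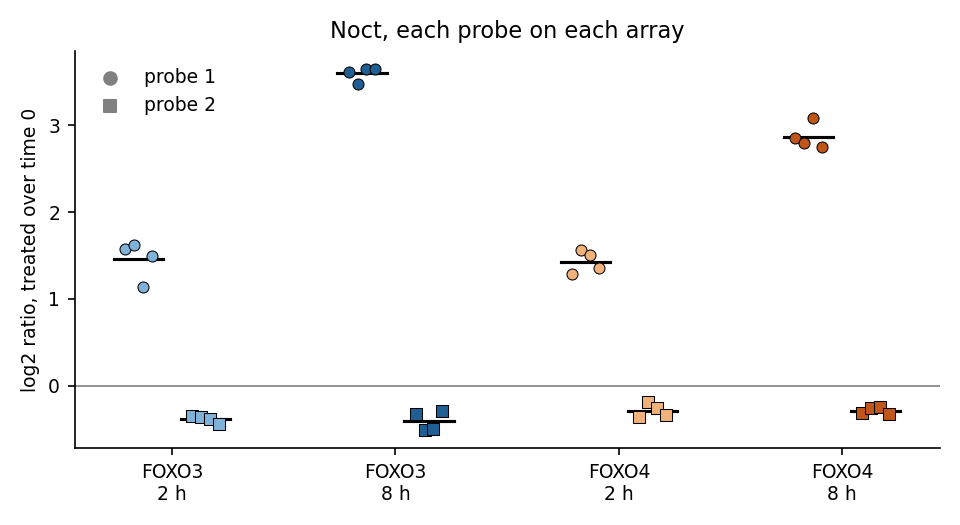
Log2 ratio of treated over time 0 for each Noct probe on each of the 16 arrays, with the dye effect removed; circles are probe 1, squares are probe 2 and bars are the means of 4 arrays. Probe 1 lies between 1.14 and 3.65 and climbs with time in both lines, while all 16 values of probe 2 lie below 0.

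Among the 30827 probes tested, this Noct probe had the highest ratio against time 0 at 8 h, at rank 1 in both lines. It stood at rank 3 in FOXO3 cells and rank 5 in FOXO4 cells at 2 h. From 2 h to 8 h it gained 2.14 ± 0.098 (SE) in FOXO3 cells and 1.44 ± 0.098 in FOXO4 cells, ranks 6 and 4 of all probes. FOXO3 cells exceeded FOXO4 cells by 0.03 ± 0.098 at 2 h and by 0.73 ± 0.098 at 8 h, and the gain between the times differed by 0.70 ± 0.139 between the lines.

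The rise started from a signal that was already well measured. The time 0 intensity of Noct probe 1 was 983 at its lowest, 4.47 times the control percentile of that array, and the highest treated intensity was 34370. Per channel, its log2 level in the FOXO3 line was 10.74 ± 0.255 in the pool (SD, 8 arrays of 1 pool), 12.21 ± 0.338 at 2 h and 14.33 ± 0.264 at 8 h (SD, n = 4). In the FOXO4 line it was 10.87 ± 0.149 in the pool, 12.41 ± 0.128 at 2 h and 13.64 ± 0.168 at 8 h. The pools of the lines differed by 0.13 on this scale, and 40.1% of all probes differed by at least as much.

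The dimmer probe of Noct did not follow the brighter. Its log2 ratio was -0.35, -0.36, -0.38 and -0.44 in FOXO3 cells at 2 h and -0.32, -0.51, -0.50 and -0.29 at 8 h. In FOXO4 cells it was -0.36, -0.19, -0.26 and -0.34 at 2 h and -0.31, -0.26, -0.24 and -0.33 at 8 h. All 16 values were below 0, with means of -0.38, -0.41, -0.29 and -0.29 and an SE of 0.043. The 8 arrays of a line share 1 pool, so these signs are not independent. The times overlapped within each line, and the lines overlapped at each time. Its signal ran from 0.791 to 1.85 times the control percentile and was dim in the treated channel on 8 arrays and in the pool channel on 4. Over the 16 arrays its ratio had a Pearson correlation of -0.14 with that of probe 1. The probe sequences are not used here, so the transcript stretch that each probe reads was not compared.

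The promoter of Noct is shown because its brighter probe had the highest 8 h ratio to time 0 of all probes tested in both lines. The RefSeq table (GRCm38.p6) lists 1 start site, and the 250 bases before it lie at chr3:51224197-51224446 on the plus strand.
Noct: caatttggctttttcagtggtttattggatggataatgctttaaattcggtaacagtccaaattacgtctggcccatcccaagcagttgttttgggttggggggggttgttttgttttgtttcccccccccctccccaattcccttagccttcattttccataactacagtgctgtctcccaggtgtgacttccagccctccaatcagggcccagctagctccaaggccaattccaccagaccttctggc
No base is in capitals, because none of the 6 motifs searched on both strands was found in the window of 250 bases before to 50 bases after the start. The motifs were a FOXO element (GTAAACA), the E-box CACGTG, the E-box-like CACGTT, the CRE TGACGTCA, the D-box (TTATGTAA or TTACGTAA) and the ROR/REV-ERB element. They occur in 3.65%, 7.15%, 4.68%, 1.79%, 1.06% and 0.384% of 32851 RefSeq mouse promoter windows. Their absence says only that these letters are not in this window.

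Most clock gene probes gave signals no higher than the control spots. Per1, Cry2, Nr1d1 and both probes of Nr1d2 were dim in both channels of all 16 arrays, with no value above 0.754 times the control percentile. Clock probe 2 was above it in 1 of 32 channel values, Dbp in 4 and Clock probe 1 in 10. Arntl was above it in 28 and Cry1 in 32.

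**Figure D2:**
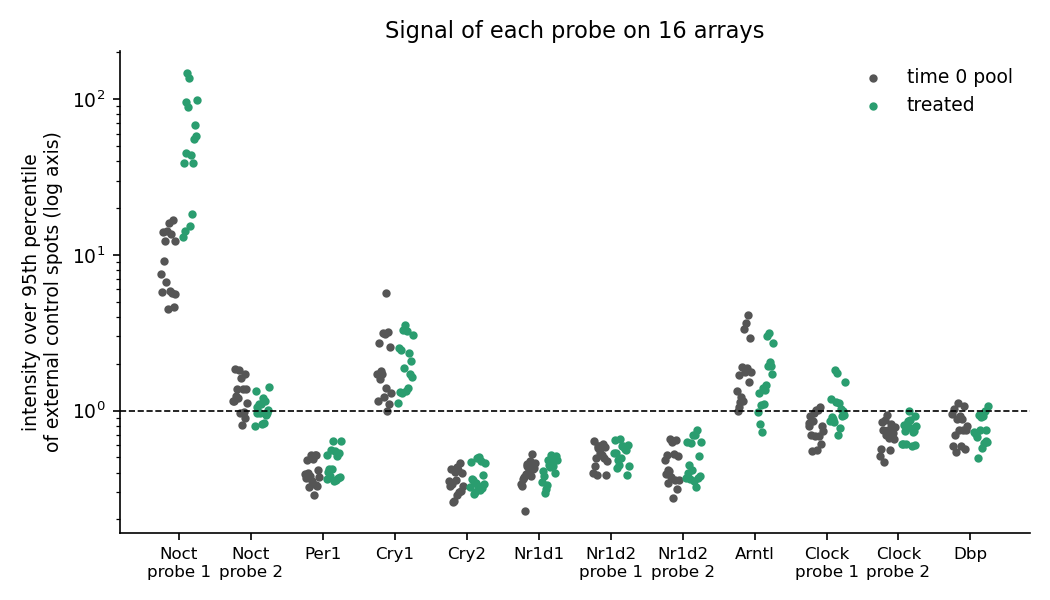
Intensity of the 12 probes on the 16 arrays, divided by the control percentile (95%) of the same array and channel, on a log axis; grey is the time 0 pool, green the treated cells, and the dashed line is 1. Noct probe 1, Cry1 and most values of Arntl lie above the line, and 5 probes lie below it throughout.

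Of the activating pair, Arntl was lower than time 0 on all 16 arrays. The 8 arrays of a line share 1 pool, so their signs are not independent, and that pool cancels only in 8 h against 2 h. Its log2 ratio in FOXO3 cells was -0.17, -0.17, -0.52 and -0.18 at 2 h and -0.59, -0.29, -0.31 and -0.40 at 8 h. In FOXO4 cells it was -0.21, -0.35, -0.09 and -0.28 at 2 h and -0.15, -0.33, -0.31 and -0.34 at 8 h. The groups overlapped, with means of -0.26, -0.40, -0.23 and -0.28 (SE 0.062, n = 4), so the gene stood at between 0.76 and 0.852 of its time 0 signal. By limma with Benjamini-Hochberg adjustment over all probes, the difference of 8 h against 2 h missed the threshold of 0.05 in FOXO3 cells (-0.13 ± 0.088, adjusted p = 0.416, 95% interval -0.32 to 0.05) and in FOXO4 cells (-0.05 ± 0.088, adjusted p = 0.946, -0.24 to 0.13).

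The level of Arntl separated the lines. The time 0 pool of FOXO3 cells gave a log2 level of 8.06 ± 0.087 and that of FOXO4 cells 9.02 ± 0.147 (SD, 8 arrays of 1 pool each), a difference of 0.96 or 1.94-fold. Every FOXO4 channel value, at 8.48 or more, lay above every FOXO3 channel value, at 8.17 or less, treated cells included. Of all probes, 0.11% differed as much between the pools, and the other 11 member probes differed by 0.22 or less. With 1 pool and 1 clone per line this is a difference between those pools, with no test.

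**Figure D3:**
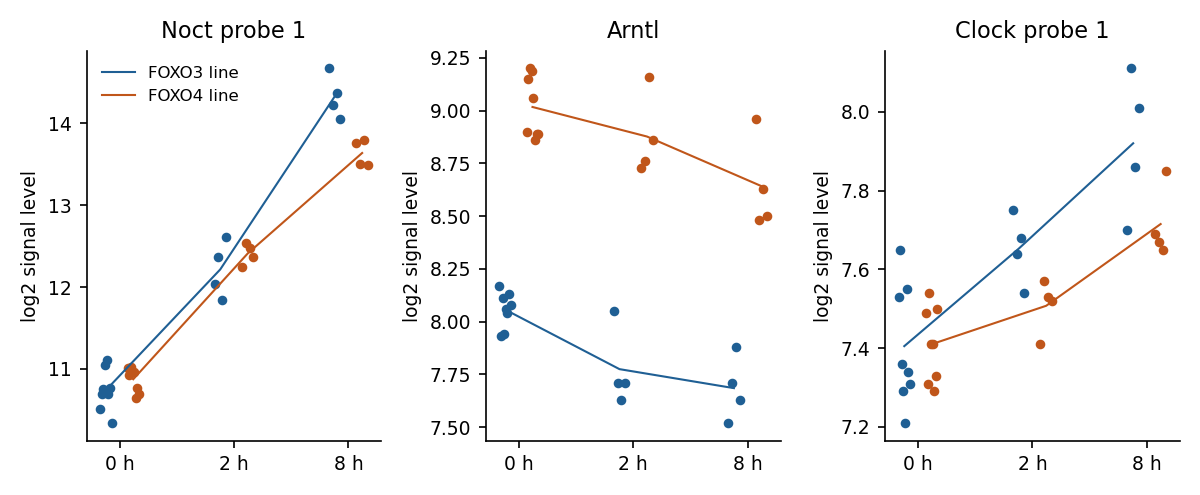
Log2 signal level of Noct probe 1, Arntl and Clock probe 1 at 0 h (8 arrays of the line's pool), 2 h and 8 h (4 cultures each) in the FOXO3 and FOXO4 lines; points are arrays, lines join means, and each panel has its own scale. The Noct lines part at 8 h, the Arntl lines are apart at every time, and Clock probe 1 starts from the same level.

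Arntl is a target of the REV-ERB repressors, and the element they share with the ROR activators was found in the window of its RefSeq start site 2. It is shown with its flanks, at chr7:113207528-113207556 on the plus strand of GRCm38.p6, with the element in capitals.
Arntl: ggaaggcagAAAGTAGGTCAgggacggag
The element starts at position 27 after the start, and 0.384% of all promoter windows hold it on either strand. The match is a description of the letters and shows no binding.

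Clock probe 1 was the clock gene probe called higher at 8 h than at 2 h. Its log2 ratio was 0.25, -0.05, 0.35 and 0.22 in FOXO3 cells at 2 h and 0.53, 0.52, 0.56 and 0.67 at 8 h. In FOXO4 cells it was -0.04, 0.23, 0.02 and 0.08 at 2 h and 0.32, 0.35, 0.35 and 0.32 at 8 h. The 8 h arrays lay above all 2 h arrays in each line, and the FOXO3 arrays at 8 h lay above all FOXO4 arrays at 8 h. From 2 h to 8 h the probe rose by 0.37 ± 0.077 in FOXO3 cells (limma, adjusted p = 0.00144) and by 0.26 ± 0.077 in FOXO4 cells (limma, adjusted p = 0.0439).

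The FOXO4 call was lost in 12 of 16 fits that left out 1 array (limma, adjusted p from 0.0504 to 0.159). It was also lost when the dye term was dropped (limma, adjusted p = 0.222) or ratios were centred on control spots (adjusted p = 0.299). The FOXO3 call was kept in all 16 fits that left out 1 array. The probe was dim in the pool channel on 13 arrays and in the treated channel on 9. FOXO3 and FOXO4 cells differed by 0.24 ± 0.077 at 8 h, which missed the threshold (limma, adjusted p = 0.0729), with a 95% interval from 0.07 to 0.40. It passed with probes filtered at the control spots (limma, adjusted p = 0.0396) and without FOXO3 2 h replicate 2 (0.0173), FOXO3 2 h replicate 3 (0.0496) or FOXO4 2 h replicate 2 (0.0476). Clock probe 2, dim on nearly every array, gave means of 0.04, -0.06, -0.07 and 0.02 with an SE of 0.093. Its 8 h against 2 h differences were -0.11 ± 0.131 and 0.09 ± 0.131 and were not called (limma, adjusted p = 0.746 and 0.925).

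Of the repressors, Cry1 was the only clock probe above the control spots throughout. Its log2 ratio was 0.08, 0.04, 0.00 and -0.14 in FOXO3 cells at 2 h and 0.13, -0.04, 0.22 and 0.34 at 8 h. In FOXO4 cells it was 0.05, -0.20, -0.85 and 0.06 at 2 h and 0.23, -0.07, 0.12 and -0.02 at 8 h. The value of -0.85 came from the array with the highest Cry1 pool intensity, 824.4, which was 5.65 times the control percentile. Without that array the FOXO4 mean at 2 h was -0.01 instead of -0.24, and the FOXO4 difference of 8 h against 2 h was 0.08 instead of 0.30. Neither line's difference passed the threshold (0.17 ± 0.149 in FOXO3 cells, limma adjusted p = 0.606, 95% interval -0.15 to 0.48; 0.30 ± 0.149 in FOXO4 cells, adjusted p = 0.34, -0.01 to 0.62).

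The promoter of Cry1 is shown because it held 3 of the motifs. The 250 bases before the RefSeq start lie at chr10:85185055-85185304 on the minus strand of GRCm38.p6, and capitals mark the matches.
Cry1: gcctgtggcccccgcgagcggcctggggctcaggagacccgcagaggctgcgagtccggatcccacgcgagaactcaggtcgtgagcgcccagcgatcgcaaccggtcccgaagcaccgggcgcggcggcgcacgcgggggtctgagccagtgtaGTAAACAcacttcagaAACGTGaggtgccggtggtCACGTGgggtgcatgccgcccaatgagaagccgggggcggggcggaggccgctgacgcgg
The FOXO element starts at -95, the E-box-like CACGTT, read on the opposite strand, at -79, and the E-box at -60 from the start. Among the other clock genes Per1 held an E-box at -166 of its start site 1, and Cry2 and Nr1d1 held CACGTT at -166 and -28. The windows of Nr1d2, Clock and Dbp held none of the motifs. The matches describe letters in these windows and say nothing of binding.

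Per1 and Cry2 were dim throughout. Per1 averaged 0.00 and 0.02 at 2 h in FOXO3 and FOXO4 cells and 0.20 and 0.17 at 8 h (SE 0.06). With its dye effect of 0.463 removed, all 8 arrays were above 0 at 8 h. Before that removal, the 8 h ratios were -0.44 to -0.22 with Cy3 on the treated side and 0.69 to 0.81 with Cy5. Its 8 h against 2 h differences, 0.20 ± 0.084 and 0.16 ± 0.084, were not called (limma, adjusted p = 0.124 and 0.42), and that in FOXO3 cells was called without FOXO3 2 h replicate 1 (adjusted p = 0.0238). The Cry2 means lay between 0.00 and 0.08 with an SE of 0.04. At these signals, within the range of the control spots, a change in transcript level may not be detectable.

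The REV-ERB genes gave small ratios at signals that were also dim. Nr1d1 means lay between -0.04 and 0.01 (SE 0.04), those of Nr1d2 probe 1 between -0.13 and 0.03 (SE 0.053), and those of Nr1d2 probe 2 between -0.03 and 0.13 (SE 0.078). Dbp, a clock output factor, was at -0.12, 0.04, -0.13 and -0.16 in FOXO3 cells at 2 h and at -0.26, -0.39, -0.19 and -0.24 at 8 h. In FOXO4 cells it was at -0.29, -0.14, -0.16 and -0.22 at 2 h and at 0.03, -0.01, -0.22 and -0.23 at 8 h. With its dye effect removed, Dbp was lower at 8 h than at 2 h without overlap in FOXO3 cells. Before that removal the arrays overlapped. The difference of -0.18 ± 0.071 was not called (limma, adjusted p = 0.109).

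**Figure D4:**
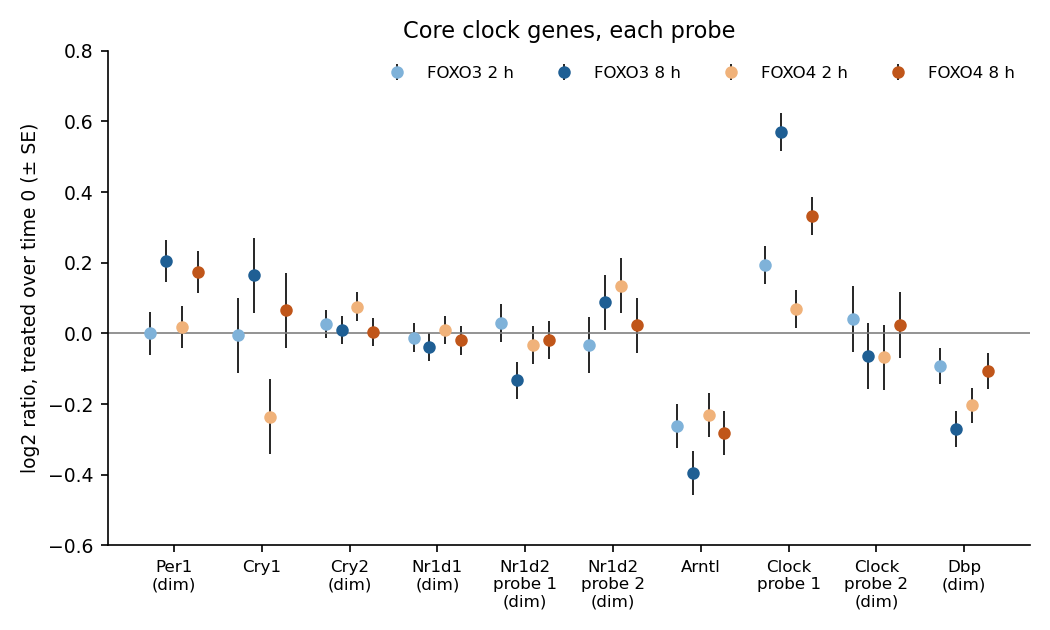
Log2 ratio of treated over time 0 for the 10 clock gene probes in the 4 groups; points are means of 4 arrays, bars are the SE of the limma fit, and probes with at most 4 of 32 channel values above the control percentile are marked dim. Arntl lies below 0 and Clock probe 1 at or above 0 in all groups, and no mean exceeds 0.57.

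Against time 0, 2 of the 10 clock probes were called in FOXO3 cells at 2 h (1 higher, 1 lower), beside 5.53% of all probes. At 8 h 4 were called in FOXO3 cells (2 higher, 2 lower), beside 25.4%. In FOXO4 cells 2 were called at 2 h (0 higher, 2 lower), beside 6.01%, and 2 at 8 h (1 higher, 1 lower), beside 14.4%. These counts use the ratios by which the genes were chosen. The medians of the 10 probes lay between -0.015 and 0.013 in the 4 groups, and those of all probes between -0.008 and 0.001.

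For 8 h against 2 h, 1 of 10 clock probes was called in each line, beside 17.2% of all probes in FOXO3 cells and 7.68% in FOXO4 cells. Both calls were rises of Clock probe 1, beside 9.77% and 5.02% of all probes called higher. At an unadjusted limma p of 0.05, 2 probes were higher and 2 lower in FOXO3 cells and 1 was higher in FOXO4 cells. Between the lines, 0 of 10 were called at 2 h (0.0227% of all probes), 0 at 8 h (8.21%) and 0 for the difference in gain (2.47%), and 0, 2 and 1 passed the unadjusted p. The shares of the clock probes called for 8 h against 2 h and between the lines are thus near the background of all probes.

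Genes whose ratios ran closest to Noct probe 1 over the 16 arrays were taken by Pearson correlation, as a description. The points share 2 pools and fall into 4 groups, and 785 probes (2.55%) had a correlation above 0.9. The closest 10 genes were Sft2d2 (0.9913), P2ry14, a UDP-sugar receptor (0.9899), Ube2h, a ubiquitin-conjugating enzyme (0.9896), Xbp1, a factor of the unfolded protein response (0.9878), Tsc22d1 (0.9872), Rabgap1 (0.9866), Pdlim5 (0.9851), Lancl3 (0.9848), Kdm5b, a histone demethylase (0.9847), and Rexo5 (0.9847). None is a clock gene of the list.

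All 10 were higher at 8 h than at 2 h in both lines, but they differed in height. P2ry14 reached 1.04, 2.80, 1.01 and 2.17 in FOXO3 cells at 2 h and 8 h and FOXO4 cells at 2 h and 8 h. Ube2h reached 0.20, 2.67, 0.12 and 1.69, so nearly all of its rise came after 2 h. Kdm5b was below time 0 at 2 h (-0.46 and -0.40) and above it at 8 h (0.58 and 0.29). Pool signals were dim on 12 of 16 arrays for P2ry14, 11 for Rexo5, 10 for Lancl3 and Pdlim5, and 9 for Ube2h and Kdm5b. They were dim on 8 for Sft2d2, 7 for Rabgap1 and 0 for Xbp1 and Tsc22d1. Promoter windows of P2ry14 and Ube2h, at other than their start site 1, held the FOXO element, which is in 3.65% of all windows. In P2ry14 the windows of start sites 2 and 3 overlap and share 1 match. Windows of Tsc22d1 and Rabgap1 held an E-box, those of Pdlim5 and Lancl3 CACGTT, and 1 of Ube2h the CRE. Most of the 10 genes had several windows searched, and the matches say nothing of binding. Other probes of Tsc22d1, Pdlim5 and Rexo5 gave correlations down to 0.39, 0.18 and 0.57. Among the clock genes, Clock probe 1 had a correlation of 0.83 with Noct, Per1 0.61, Cry1 0.47, and the others 0.04 or less.

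**Figure D5:**
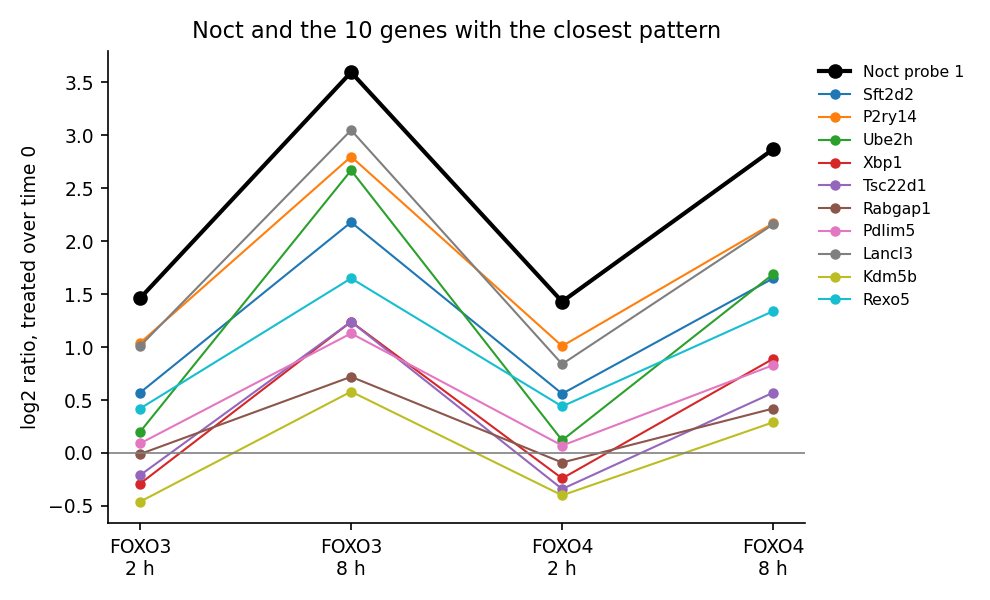
Mean log2 ratio of treated over time 0 in the 4 groups for Noct probe 1 and the 10 genes with the highest correlation with it over 16 arrays. All 11 lie higher at 8 h than at 2 h and higher in FOXO3 than in FOXO4 cells at 8 h, with Noct at the top throughout.

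A wider list held 42 clock regulators and accessory factors outside the 10 genes, called clock regulators below. Of these, 37 genes were tested, each by its brightest probe, and 10 of the 37 were dim on all arrays. The list includes factors with roles outside the clock, such as Timeless and Tipin, so its share called is no measure of the clock alone. The genes of the lists below were also read by their brightest probe. The shares of all probes set beside these lists cover every probe tested, dim ones included. They are therefore not shares of like probes, and what this adds to the gaps was not tested. By 8 h in FOXO3 cells 12 had risen and 7 fallen against time 0 (51.4% called, against 25.4% of all probes), and in FOXO4 cells 10 rose and 6 fell (43.2% against 14.4%). The FOXO4 count of 16 became 4 without the dye term, 6 with control-spot centring and 10 without FOXO4 8 h replicate 1 or 4, and the FOXO3 count of 19 became 12 without the dye term. The medians of the list were 0.03 and 0.00 at 8 h. At 2 h 3 rose and 2 fell in each line (13.5%, against 5.53% of all probes in FOXO3 cells and 6.01% in FOXO4 cells), and 2 or 3 genes in all were called under some alternatives. From 2 h to 8 h 4 rose and 8 fell in FOXO3 cells (32.4% against 17.2%), and 3 rose and 4 fell in FOXO4 cells (18.9% against 7.68%). Those counts of 12 and 7 became 7 and 3 without the dye term, and the FOXO4 count became 4 with control-spot centring.

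The 6 of these genes with the smallest adjusted p, among those called with the same sign in both lines at 8 h, were Ddb1, Wdr5, Ppp5c, Timeless, Prkaa1 and Tipin. Ddb1, an adaptor of CUL4 ubiquitin ligases, rose by 0.83 ± 0.05 in FOXO3 cells (limma, adjusted p = 2.45e-10) and 0.31 ± 0.05 in FOXO4 cells (adjusted p = 0.000205). Prkaa1, the catalytic AMPK subunit alpha 1, rose by 0.56 and 0.24, and its other probes gave 1.10 and 1.35 in FOXO3 cells and 0.62 and 0.77 in FOXO4 cells. Timeless and its partner Tipin, which act at replication forks, fell to -0.54 and -0.53 in FOXO3 cells and -0.46 and -0.23 in FOXO4 cells. Wdr5, a histone methyltransferase subunit, fell to -0.60 and -0.39, and the phosphatase gene Ppp5c to -0.57 and -0.16.

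Bhlhe40 (DEC1), a repressor at E-boxes, was lower than time 0 in all 4 groups, at -0.35, -0.32, -0.35 and -0.23 (SE 0.053, limma adjusted p of at most 0.00499). The 2 groups of a line share 1 pool, so these are not 4 independent falls. The p-values leave out the error of the pools. Npas2, Per3, Rora, Hlf and Bhlhe41 were dim on all 16 arrays and not called in any group against time 0, with means from -0.06 to 0.07. Tef and Ciart were not called either, and Nfil3 was not analysed here. At 8 h in FOXO4 cells the calls of Ddb1, Ppp5c, Tipin and Bhlhe40 were lost without the dye term (limma, adjusted p = 0.227, 1, 0.129 and 0.109). That of Prkaa1 was lost on centring on control spots (adjusted p = 0.102). The Ppp5c call was also lost without any 1 FOXO4 8 h array (limma, adjusted p from 0.0572 to 0.0891) and with median centring (0.222). Tipin was also lost with median centring (0.29), control-spot centring (0.0529) and without FOXO4 8 h replicate 1 (0.0519). Bhlhe40 was also lost with median centring (0.053) and without FOXO4 8 h replicate 2 (0.0588).

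Because nocturnin is related to deadenylases, 27 of 29 listed genes of deadenylation and decapping were tested. By 8 h 8 had risen and 5 fallen in FOXO3 cells (48.1% called against 25.4% of all probes, median 0.02), and 5 had risen and 2 fallen in FOXO4 cells (25.9% against 14.4%, median 0.03). At 2 h 2 had risen in FOXO3 cells (7.41% against 5.53%), and 2 had risen and 1 fallen in FOXO4 cells (11.1% against 6.01%). Btg1, an antiproliferative factor that binds the CCR4-NOT complex, rose by 1.87 ± 0.061 and 0.78 ± 0.061 at 8 h (limma, adjusted p = 6.96e-14 and 2.59e-08) from a pool signal that was dim on all 16 arrays. Its relatives Btg2 (0.57 and 0.36) and Tob1 (0.41 and 0.23) rose as well, but their pool signal was dim on all 16 arrays and their treated signal on 15 and 14. Cnot6l, a catalytic CCR4 subunit and a relative of nocturnin, rose by 0.61 and 0.45.

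Cnot10, a subunit of the complex, fell to -0.34 and -0.26, but its other probe gave 0.04 and 0.00 and was not called. Of the closest relatives of nocturnin, Angel2 fell to -0.25 in FOXO3 and -0.33 in FOXO4 cells at 8 h, but its 3 other probes lay between -0.09 and -0.03 and were not called. Angel1, dim on nearly all arrays, fell to -0.24 in FOXO3 cells and stood at -0.08 in FOXO4 cells, where it was not called. Pde12, a mitochondrial deadenylase, stood at 0.00 in both lines at 8 h and was not called. The FOXO4 calls at 8 h of Btg2, Tob1 and Cnot10 were lost without the dye term (limma, adjusted p = 0.367, 0.645 and 0.0838). Those of Btg2 and Tob1 were also lost on centring on control spots (limma, adjusted p = 0.0645 and 0.265).

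Of 15 genes that make or use NADP(H) and NAD, the substrates of nocturnin and their kin, 11 were tested. By 8 h 3 had risen and 6 fallen in FOXO3 cells (81.8% called against 25.4% of all probes, median -0.11), and 1 had risen and 4 fallen in FOXO4 cells (45.5% against 14.4%, median -0.10). At 2 h 0 were called by limma in FOXO3 cells (against 5.53% of all probes), where 6 passed an unadjusted p of 0.05, and 1 had risen and 1 fallen in FOXO4 cells (18.2% against 6.01%). Mthfd1, a folate enzyme that uses NADP, fell to -0.72 ± 0.046 in FOXO3 cells and -0.28 ± 0.046 in FOXO4 cells at 8 h (limma, adjusted p = 5.36e-10 and 0.000231). Hddc3, whose human form is a cytosolic NADPH phosphatase, fell to -0.48 and -0.49, and Nmnat3, an enzyme of NAD synthesis with a dim probe, to -0.52 and -0.29.

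Pgd, which makes NADPH in the pentose phosphate pathway, rose by 0.38 and 0.57. Nadk, the kinase that makes NADP from NAD, fell to -0.34 ± 0.048 in FOXO3 cells at 8 h (limma, adjusted p = 1.74e-05) and stood at -0.09 in FOXO4 cells, where it was not called. The small shifts of Idh2, a mitochondrial source of NADPH (-0.11 and -0.13), were lost in the deposited values (limma, adjusted p = 0.739 and 0.117). They were also lost without the dye term (limma, adjusted p = 0.574 and 0.584). The FOXO4 call of Mthfd1 was lost without the dye term (limma, adjusted p = 0.4).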

How the data were processed

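RNA of 16 arrays was compared as treated culture against the line's time 0 pool. Per the labels' protocols, T7 amplification gave aminoallyl cRNA, spiked with external control RNA, to which Cy3 or Cy5 was coupled. The deposited scanner files hold, per the file headers, a mean intensity per spot and channel with local background not subtracted, and further files hold the authors' normalized intensity. A table of log2 values that the authors deposited matched the log2 ratio of treated to time 0 normalized intensity within 5e-06 (column medians from -0.0124 to 0.0108). How the authors normalized is not stated in the sources read. Channel 1 was taken as Cy5, since it was closest to the deposited Cy5 values on 16 of 16 arrays.

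Scanner intensities were corrected with normexp (offset 50) and normalized by loess within arrays, control spots at weight 0, with no scaling between arrays. Of 34992 spots per array, 3223 were controls, and 942 probes were left out because fewer than 4 arrays showed them over local background plus 2 of its SDs, in Cy5 or Cy3. Levels per channel were scaled with Aquantile. All 16 arrays entered 1 limma 3.58.1 fit (R 4.3.3) with 4 group means and a dye term for each probe, adjusted by Benjamini-Hochberg over 30827 probes in each of 9 comparisons, and a probe was called under 0.05. Each line's pool counts as 1 control sample, and the spread among time 0 cultures does not enter the tests. The series design calls the replicates independent, and the number of arrays limits the precision. On simulated data for FOXO3 at 8 h over 30827 probes the fit recovered 45 of 50 probes changed by 0.3 and 50 of 50 at each of 0.6, 1 and 2, with 7 false calls among 30627. No pair of arrays shared over 1% of intensities.

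The members, lists and tests were chosen with earlier results of these data known, so they are no independent support. Symbols came from the platform annotation, updated through RefSeq synonyms (GRCm38.p6): 15860 were current, 1981 updated and 47 kept. Named were all member probes, up to 6 genes of each list with the smallest adjusted p in FOXO3 cells at 8 h among those called with the same sign in both lines, 13 genes named whether called or not, and the 10 genes of highest correlation with Noct. Promoters came from RefSeq. The data did not show pairing of cultures by replicate number. Alternatives changed the background correction, normalization, scaling, dye term, filter, probe choice, source, fit and arrays.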

Additional observations from a re-analysis of the deposited data

Results flagged for a closer look

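For Arntl in FOXO3 cells at 2 h, replicate 3 gave a log2 ratio of -0.52 and lay far from the other 3 arrays, at -0.18 to -0.17. It was 1 of 48 probe and group sets tested for such a gap, and chance alone flags about 1 in 20.

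For some list genes the response at 8 h differed between the lines when the difference itself was tested (limma, Benjamini-Hochberg adjustment over all probes). FOXO3 minus FOXO4 was 0.52 for Ddb1 (adjusted p = 8.05e-05), 0.32 for Prkaa1 (0.00587) and 1.09 for Btg1 (2.86e-07). It was -0.30 for Tipin (adjusted p = 0.0287), -0.21 for Wdr5 (0.0267), -0.42 for Ppp5c (0.000234), -0.24 for Nadk (0.0289) and -0.44 for Mthfd1 (0.000193). The change from 2 h to 8 h also differed between the lines for Ddb1, by 0.42 (adjusted p = 0.0301), for Btg1, by 0.76 (0.00201), and for Mthfd1, by -0.38 (0.0309). For Prkaa1, Tipin, Wdr5, Ppp5c and Nadk the change from 2 h to 8 h was not called as different between the lines. The differences at 8 h also hold the error of both time 0 pools, which their p-values leave out. That error cancels in the change from 2 h to 8 h. The FOXO factor and the clone cannot be told apart in any of these differences.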

How the results depend on the processing

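The 4 mean ratios of Noct probe 1 against time 0 kept their sign and moved by less than the spread between arrays under every alternative, with ranges of 1.40 to 1.58 (FOXO3, 2 h), 3.58 to 3.64 (FOXO3, 8 h), 1.38 to 1.48 (FOXO4, 2 h) and 2.79 to 2.91 (FOXO4, 8 h) when 1 array was left out. In the other comparisons 5 Noct values moved by at least the spread between arrays, under alternatives other than leaving out 1 array. So did 17 ratios of the other member probes against time 0. No called result reversed. Without the dye term, counts of probes moved to 506, 4557, 501 and 1998 against time 0 for FOXO3 2 h and 8 h and FOXO4 2 h and 8 h (the last 3 from 7815, 1854 and 4429), to 2560 and 659 for 8 h against 2 h (from 5309 and 2368), to 2 and 733 between the lines (from 7 and 2530) and to 99 for the difference in gain (from 761). The clock regulators called then numbered 2, 12, 2 and 4 against time 0 (from 5, 19, 5 and 16) and 7 and 3 for 8 h against 2 h (from 12 and 7). Centring on control spots gave 686 for FOXO3 2 h, 3240 and 899 for 8 h against 2 h, 1 and 1014 between the lines and 53 for the difference in gain, and 2, 2, 6 and 4 clock regulators for FOXO3 2 h, FOXO4 2 h, FOXO4 8 h and FOXO4 8 h against 2 h. Median centring gave 1170 for FOXO4 2 h, 1568 for FOXO4 8 h against 2 h, 0 between the lines at 2 h, 250 for the difference in gain and 3 clock regulators for FOXO4 2 h. The cause was not tested. Control-spot centring moved the median of all probes by up to -0.12 (FOXO4 8 h) and the share of higher among called probes from 42.6% to 13% (FOXO4 2 h), 58.1% to 34.9% (FOXO4 8 h) and 54% to 43.1% (FOXO3 8 h), and in FOXO4 8 h against 2 h it was 78.2%, or 81.1% with median centring, from 65.4%. For FOXO3 against FOXO4 at 8 h it was 67.9% or 40.3%, from 52.4%. Leaving out 1 array gave 1137 to 1881, 6759 to 8011, 1217 to 1923 and 3319 to 4706 probes against time 0, 4669 to 5544 and 1811 to 2448 for 8 h against 2 h, 2 to 7 and 1914 to 2727 between the lines, and 522 to 748 for the difference in gain, and 3 to 6, 16 to 19, 2 to 5, 10 to 17, 9 to 14 and 6 to 8 clock regulators. Counts against time 0 moved by over 1.5 times without FOXO3 2 h replicate 4 (1137 probes) or FOXO4 2 h replicate 1 (1217 probes, 3 clock regulators), and for clock regulators without FOXO3 2 h replicate 1 or 2 (3), FOXO4 2 h replicate 4 (2) and FOXO4 8 h replicate 1 or 4 (10). As for pairing, same-numbered cultures at 2 h and 8 h had correlations of -0.40 to 0.18 in their deviations. Of these, 2 of 8 matched their own number best. The data thus did not show pairing, but such weak correlations cannot tell whether same-numbered samples shared a culture or day. With the culture as a replicate block the counts were 1694, 7802, 1839 and 4416 against time 0, 5227 and 2200 for 8 h against 2 h and 624 for the difference in gain, and 5, 19, 5, 16, 12 and 7 clock regulators. Signals within the range of the control spots limit what can be said of Per1, Cry2, Nr1d1 and Nr1d2.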
